A study of Mus musculus with 9 samples.

Results

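The core of Polycomb repressive complex 1 (PRC1) is a pair of RING proteins: a PCGF protein, such as Bmi1, and a RING ligase, Ring1 or Rnf2. The genes described here are those 8 members of the deposited expression table, Bmi1, Pcgf1, Pcgf2, Pcgf3, Pcgf5, Pcgf6, Ring1 and Rnf2, chosen by gene symbol from 20512 symbols. All 8 members were found and all lay above the floor for testing, a mean log2 value of 3, which left 14490 genes. RNA was taken from the intact tongue of mice of about 6 weeks on a mixed C57/Bl6 and FVB/NJ background, and every mouse had doxycycline in its drinking water, 2 mg/mL over 1 week. The 5 libraries called control here are from K14-rtTA mice, in which the keratin 14 promoter places the doxycycline-dependent activator in basal epithelial cells. The 4 libraries called transgene are from mice with TREFLBmi-1, the Bmi1 transgene, in addition to K14-rtTA. Both groups carry the activator and received the drug, so these do not differ between them.

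In PRC1 the RING ligase attaches ubiquitin to a lysine of histone H2A, and the PCGF protein binds the ligase and stimulates it. A given complex holds a single PCGF protein, and which one it holds sets the remaining subunits. Bmi1 and Pcgf2 (also called Mel18) enter the canonical complexes with CBX and PHC proteins, and both can also enter variant complexes with RYBP or YAF2. Pcgf1, Pcgf3, Pcgf5 and Pcgf6 enter variant complexes. Bmi1 is best known in epithelia for repressing the Ink4a/Arf locus and for its part in the renewal of basal and stem cells.

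The part of each transcript that encodes the RING finger, the zinc-binding fold through which PCGF and RING proteins pair, shows how near these members are at the level that a short read sees. The stretches below are coding sequence of GENCODE M21 transcripts (GRCm38 annotation, 5′ to 3′), and capitals mark the codons of the 8 zinc-binding cysteines and histidine. Bmi1 (chromosome 2) is set beside Pcgf2 (chromosome 11), the PCGF member nearest to it over this stretch, and Pcgf3 (chromosome 5), the farthest, and Ring1 (chromosome 17) is set beside Rnf2 (chromosome 1).
Bmi1: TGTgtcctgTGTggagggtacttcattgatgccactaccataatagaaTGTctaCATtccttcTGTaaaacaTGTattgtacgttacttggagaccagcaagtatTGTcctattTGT
Pcgf2: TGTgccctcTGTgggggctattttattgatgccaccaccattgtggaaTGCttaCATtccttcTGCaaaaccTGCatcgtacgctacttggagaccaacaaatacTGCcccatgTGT
Pcgf3: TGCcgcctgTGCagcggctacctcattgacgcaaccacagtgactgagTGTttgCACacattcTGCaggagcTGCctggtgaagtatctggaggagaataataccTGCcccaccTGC
Ring1: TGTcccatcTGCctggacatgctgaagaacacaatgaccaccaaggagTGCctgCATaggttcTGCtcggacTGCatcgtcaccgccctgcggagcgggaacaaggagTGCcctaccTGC
Rnf2: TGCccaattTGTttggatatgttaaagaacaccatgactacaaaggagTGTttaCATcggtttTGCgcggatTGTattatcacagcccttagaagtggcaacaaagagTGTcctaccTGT
Over 117 bases Bmi1 matched Pcgf2 at 94 (80.3%) and Pcgf3 at 67 (57.3%), and over 120 bases Ring1 matched Rnf2 at 90 (75.0%). Across whole transcripts, 1 per member, the longest run of identical bases between Bmi1 and any other member was 14. Since the labels give reads of 50 bases, every 50-base window of 1 transcript per member was searched in all annotated transcripts. This was the transcript with the longest coding sequence. Exons outside it were not searched: for Pcgf5 it has 1626 bases, against 6757 annotated exon bases, and for Bmi1 2747 against 3698. None of the searched windows of the 8 members occurred in another member. Of the 2698 windows of Bmi1, 655 (24.3%) occurred in a transcript of some other gene, 650 of them in Gm5946, a pseudogene on chromosome X. For Pcgf1, 272 of 869 windows (31.3%) occurred in the pseudogene Gm8930, and for Pcgf5 11 of 1577 windows (0.698%) occurred elsewhere, while the other 5 members had 0. The sources do not state how reads with more than 1 match were counted. By the searched windows the levels of Bmi1 and Pcgf1 are the less certain ones.

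Separate animals are not stated for the libraries, and p-values therefore reflect library-to-library spread, which may be technical. Values are the authors' log2 normalized expression, and every difference is transgene minus control. The transform behind them is not named. Fold values, linear sums, shares and ratios here read a difference of 1 as a doubling, which was not checked. Counts were not used here, which leaves depth unknown. The values carry a constraint that bears on every test. Libraries in groups of 5 and 4 can vary in 7 directions within groups, and only 5 directions held variation. A search of 3003 divisions into 3 sets found 1 whose set means leave no effect in any gene beyond the group means. In that division stratum 1 is control replicate 1 with transgene replicate 1, stratum 2 is control replicates 2 and 3 with transgene replicates 2, 3 and 4, and stratum 3 is control replicates 4 and 5. The test was therefore limma with terms for group and stratum, with Benjamini-Hochberg adjustment over all 14490 genes, and the fit with group alone is given beside it. Tongue markers were in place: the oral keratin Krt13 averaged 18.70 and the muscle actin Acta1 17.74 in controls.

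Bmi1 was higher in all 4 transgene libraries than in all 5 controls, by 2.44 on the log2 scale, a 5.43-fold difference. In controls it stood at 10.74, 10.21, 10.24, 10.45 and 10.34 in replicates 1 to 5. In transgene libraries it stood at 12.49, 12.05, 14.87 and 11.94 in replicates 1 to 4. The groups did not overlap, and transgene replicate 3 stood far above the other 3. Relative to the control mean the excess was 4.28-fold, 3.15-fold, 22.2-fold and 2.92-fold in transgene replicates 1 to 4. The standard deviation of Bmi1 among transgene libraries was 1.37, against a median of 0.0689 over all tested genes, and no other tested gene had a larger one. Bmi1 also had the largest difference of all tested genes.

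The 95% interval of the Bmi1 difference ran from 1.11 to 3.77 (2.16-fold to 13.7-fold), with a limma adjusted p of 0.0672 with stratum terms and 0.00719 with group alone. The permutation test over libraries gave a two-sided p of 0.00794, the smallest that 126 splits allow, and 0.05 within strata, the smallest that 20 splits allow. The stratum constraint spares the true group means. Other splits are therefore not on equal terms with the true one, and neither permutation p is exact. Commd3, described below, gave the same p in both forms of this test. Without transgene replicate 3 the difference was 1.77 with an SE of 0.0549, and the limma adjusted p was 1.61e-06 with stratum terms. Without control replicate 1 or transgene replicate 1 the difference was 2.73 (limma adjusted p 0.0482 and 0.0483). Either omission leaves stratum 2 as the only source of the difference, so these are not separate estimates. Within stratum 2 alone it was the same 2.73, with a limma adjusted p of 0.088. The single pair of libraries in stratum 1 differed by 1.76. Whether these reads came from the transgene or from the endogenous gene was not separated.

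The spread of Bmi1 among controls was also wide, with an SD of 0.21 that exceeded that of 99.2% of tested genes. The stratum constraint ties this spread to the transgene group. Control replicate 1 lay 0.34 above its group mean and transgene replicate 1 lay below its own by the same amount (a deviation of -0.34). In stratum 2 control replicates 2 and 3 deviated by -0.18 and -0.16, while transgene replicates 2, 3 and 4 deviated by -0.79, 2.03 and -0.90. In every tested gene the deviations from the group means summed to 0 within each stratum, so the deviations of these libraries are not independent of each other. The control SD of Bmi1 therefore cannot be read apart from the transgene libraries.

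**Figure D1:**
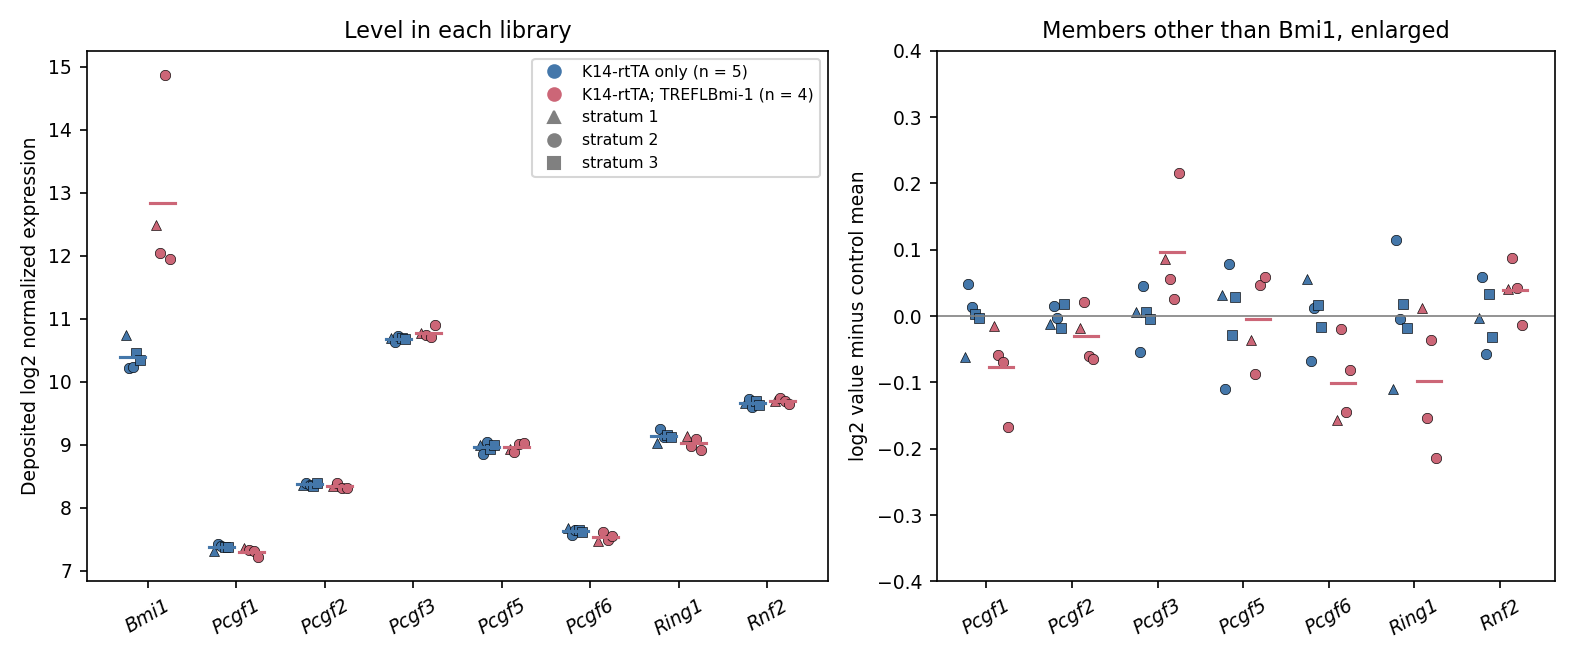
Left, deposited log2 normalized expression of the 8 members in each library, with a bar at each group mean. Right, the 7 members other than Bmi1 as the log2 value minus the control mean, on an enlarged axis. Colour gives the group (5 control and 4 transgene libraries) and shape the stratum; Bmi1 separates the groups, with transgene replicate 3 at 14.87, and the points of every other member overlap.

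The PCGF paralogues did not follow Bmi1. Of the 8 members, 0 were called at an adjusted p under 0.05 with stratum terms, where 1.66% of all tested genes were called (0.511% higher and 1.15% lower). At an unadjusted p under 0.05 Bmi1 alone passed with stratum terms, where 23% of all tested genes did. With group alone limma called Bmi1 and no other member, where 24.4% of all tested genes were called (11.7% higher and 12.7% lower). At an unadjusted p under 0.05 that fit passed Bmi1, Pcgf3 and Pcgf6, 3 of the 8, against 39% of all tested genes. Bmi1 was the 1 member of 8 whose groups did not overlap, a pattern shown by 21.3% of all tested genes (9.76% higher and 11.6% lower). Across the 7 other members the 95% intervals reached no lower than -0.26 (0.833-fold) and no higher than 0.22 (1.17-fold).

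Pcgf2, the paralogue closest to Bmi1 and its alternative in canonical PRC1, stood at 8.36, 8.39, 8.37, 8.35 and 8.39 in control replicates 1 to 5. It stood at 8.35, 8.39, 8.31 and 8.31 in transgene replicates 1 to 4. The groups overlapped, and the difference was -0.03 (95% interval -0.14 to 0.08, limma adjusted p 0.746). Its SD was larger than that of 3.55% of tested genes among controls and of 19.4% among transgene libraries. Transgene replicate 3, with the highest Bmi1, held Pcgf2 at 8.31, beside 8.31 in transgene replicate 4, where Bmi1 was lowest of that group.

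Pcgf1 defines the variant complex with the DNA-binding demethylase KDM2B and BCOR. It ran from 7.32 to 7.43 in controls and from 7.21 to 7.37 in transgene libraries, with a difference of -0.08 (95% interval -0.20 to 0.05, limma adjusted p 0.434). Its difference was 0.05 within stratum 1 and -0.13 within stratum 2.

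Pcgf3 and Pcgf5 define related variant complexes that can hold AUTS2 or fibrosin proteins and casein kinase 2. Pcgf3 stood at 10.69, 10.63, 10.73, 10.69 and 10.68 in control replicates 1 to 5 and at 10.77, 10.74, 10.71 and 10.90 in transgene replicates 1 to 4. The highest 3 of the 9 values were in the transgene group, but control replicate 3 lay above transgene replicate 3. The difference was 0.10 (95% interval -0.03 to 0.22, limma adjusted p 0.333), and 0.08 and 0.10 within strata 1 and 2. Pcgf5 ran from 8.86 to 9.04 in controls and from 8.88 to 9.03 in transgene libraries, with a difference of -0.0043 (95% interval -0.15 to 0.14, limma adjusted p 0.976).

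Pcgf6 defines the variant complex with the transcription factors MGA, MAX and E2F6. It stood at 7.68, 7.56, 7.64, 7.65 and 7.61 in control replicates 1 to 5 and at 7.47, 7.61, 7.48 and 7.55 in transgene replicates 1 to 4. The lowest 3 of the 9 values were in the transgene group, and transgene replicate 2 lay within the control range. The difference was -0.10 (95% interval -0.23 to 0.03), with a limma adjusted p of 0.326 with stratum terms and 0.0877 with group alone. It was -0.21 within stratum 1 and -0.05 within stratum 2.

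The RING ligases, which every form of PRC1 needs, lay within their own spread as well. Rnf2, also called Ring1B, stood at 9.66, 9.72, 9.60, 9.69 and 9.63 in control replicates 1 to 5 and at 9.70, 9.75, 9.70 and 9.65 in transgene replicates 1 to 4. The groups overlapped along most of their range, with a difference of 0.04 (95% interval -0.07 to 0.15, limma adjusted p 0.676). It was 0.04 within stratum 1 and 0.04 within stratum 2.

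Ring1 stood at 9.02, 9.25, 9.13, 9.15 and 9.11 in control replicates 1 to 5 and at 9.14, 8.98, 9.10 and 8.92 in transgene replicates 1 to 4. The lowest 2 values were transgene libraries of stratum 2, and control replicate 1 came next. The difference was -0.10 (95% interval -0.26 to 0.07, limma adjusted p 0.451). Ring1 was lower within stratum 2 by -0.19 (limma adjusted p 0.1704), and in the 1 pair of libraries of stratum 1 the difference was 0.12.

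**Figure D2:**
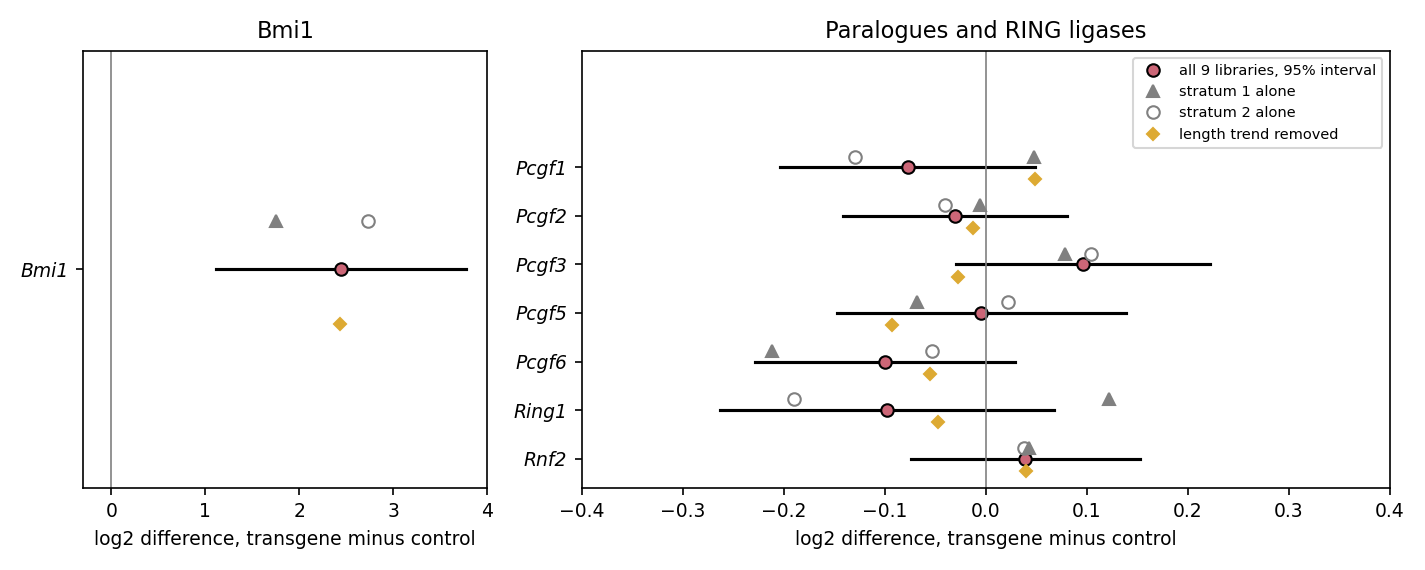
Log2 difference, transgene minus control, for Bmi1 (left) and the other members (right, on a narrower axis), with the 95% interval from the fit with stratum terms. Grey symbols give the difference within stratum 1 and stratum 2 and diamonds the difference with the length trend removed; the interval of Bmi1 lies above 0, and all the other intervals include 0.

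A trend with transcript length turned the direction of 2 of these uncalled differences. Once the smooth trend of each library with annotated exon length was taken out, Pcgf1, with 988 exon bases, went from -0.08 to 0.05, and Pcgf3, with 9008 exon bases, went from 0.10 to -0.03. The other 5 kept their sign, but not all kept their size. Pcgf5 went from -0.0043 to -0.093, Pcgf6 from -0.100 to -0.055 and Ring1 from -0.098 to -0.047. Pcgf2 went from -0.030 to -0.013, and Rnf2 stayed at 0.04. Bmi1 stayed at 2.43, with a limma adjusted p of 0.127 in that fit, which called 1 of 14438 genes (0.00693%). No alternative called any of the 7 other members.

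Levels can be compared between genes only per length, here as the log2 value per kilobase of annotated exon. In controls Bmi1 was already the most abundant member at 8.51 ± 0.21 (SD, n = 5), followed by Ring1 at 8.11 ± 0.08 and Rnf2 at 7.92 ± 0.05. The variant paralogues Pcgf3 (7.51 ± 0.04) and Pcgf1 (7.40 ± 0.04) came next, and Pcgf2 (6.87 ± 0.02), Pcgf6 (6.52 ± 0.05) and Pcgf5 (6.21 ± 0.07) were lowest. No member overlapped its neighbour in this order in the controls. In transgene libraries the order was the same, and Ring1 (8.01 ± 0.10, SD, n = 4) and Rnf2 (7.96 ± 0.04) overlapped. The order rests on annotated lengths, which need not be those of the transcripts made in the tongue: without the division by length, Pcgf3 (10.69) lay above Bmi1 (10.40) in controls. The last place of Pcgf5 rests on 6757 exon bases. The Pcgf5 transcript whose windows were searched has 1626 bases, and at that length its level per kilobase would be higher, so its place is not secure.

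Set against the other PCGF transcripts, Bmi1 went from a minority to a majority. Its share of the summed linear PCGF value per kilobase averaged 36.5% ± 3.53 over the 5 controls and 72.8% ± 13.9 over the 4 transgene libraries (SD). The control shares were 42.2%, 33.9%, 33.5%, 37.5% and 35.5% in replicates 1 to 5. The transgene shares were 71.2%, 64.5%, 92.9% and 62.5% in replicates 1 to 4. The lowest transgene library thus lay above the highest control. Pcgf2 made up 11.7% ± 0.733 in controls and 4.94% ± 2.52 in transgene libraries. These shares rest on the same annotated lengths, describe chosen members and were not tested.

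The sums of the other PCGF genes and of the ligases differed between groups by less than 1 SD of the libraries. The linear per-kilobase values of the 5 other PCGF genes summed to 634 ± 7.71 over the 5 controls and 629.5 ± 8.34 over the 4 transgene libraries (SD). Ring1 and Rnf2 together summed to 518 ± 20.99 in controls and 507 ± 21.6 in transgene libraries. Bmi1 transcript relative to the sum of both ligases was therefore 0.583 to 0.929 in controls, and 2.96, 2.27, 15.6 and 2.22 in transgene replicates 1 to 4. At these annotated lengths every control held less Bmi1 than ligase transcript per kilobase, and every transgene library held more. Whole-tongue RNA cannot tell more transcript per cell from more cells that make it, nor place either in basal epithelium.

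**Figure D3:**
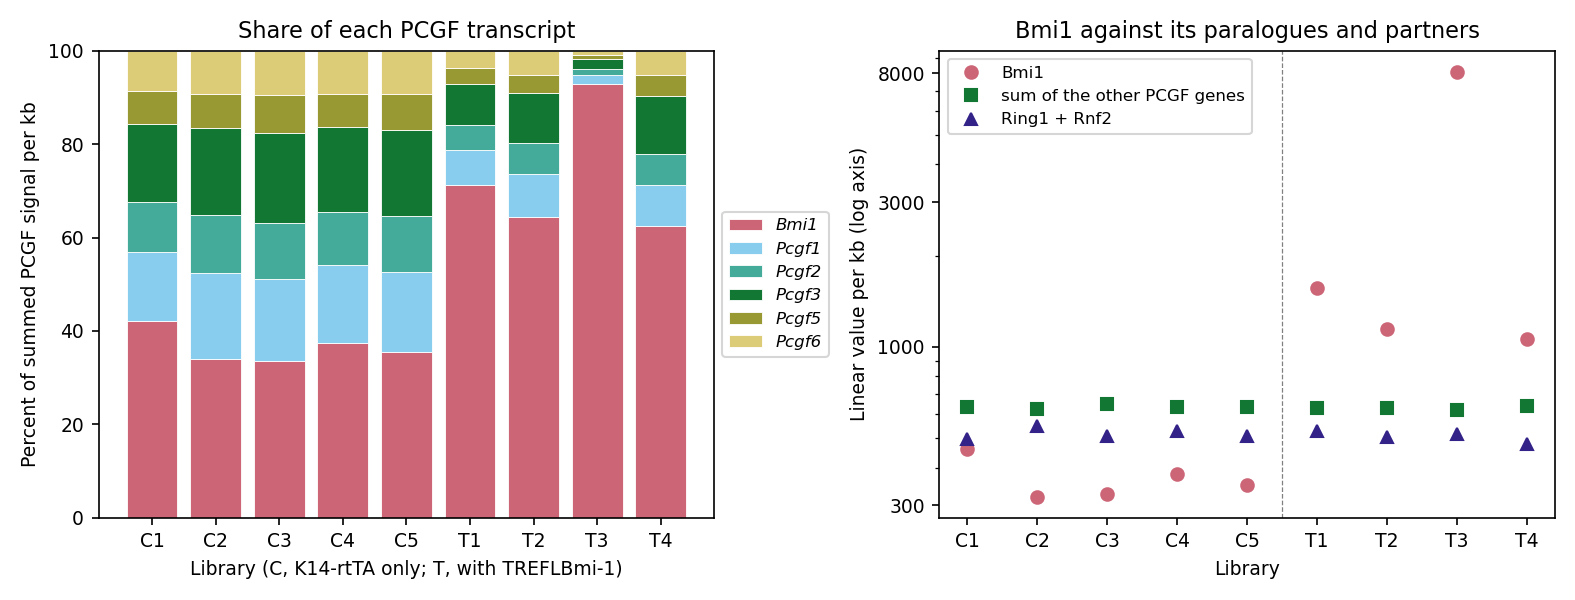
Left, share of each PCGF gene in the summed linear value per kilobase of exon, by library (C1 to C5 controls, T1 to T4 transgene). Right, linear value per kilobase of Bmi1, of the 5 other PCGF genes summed and of Ring1 with Rnf2, on a log axis; the Bmi1 share is at most 42.2% in controls and at least 62.5% in transgene libraries, while both sums stay level.

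The keratin 14 promoter drives the activator, so the basal keratins are set beside Bmi1. Krt14 ran from 15.27 to 15.44 in controls and from 15.11 to 15.31 in transgene libraries (difference -0.16, limma adjusted p 0.241). In transgene replicates 1 to 4 it stood at 15.12, 15.11, 15.26 and 15.31, so the library with the highest Bmi1 did not have the highest Krt14. Krt5 differed by -0.10 (limma adjusted p 0.526). The summed level of 8 basal keratinocyte markers, as log2, ran from 17.15 to 17.38 in controls and from 17.10 to 17.30 in transgene libraries. Of these 8 markers 4 differed upward and 4, Krt14 and Krt5 among them, downward. Limma called 0 of them with stratum terms, where 2 were higher at an unadjusted p under 0.05, against 23% of all tested genes. With group alone it called 2 higher and 0 lower, against 24.4%. The sum of 8 filiform papilla markers ran from 14.58 to 14.91 in controls and from 13.62 to 14.46 in transgene libraries, with no overlap. The sum of 7 fibroblast markers ran from 16.25 to 16.65 and from 16.63 to 16.96. With stratum terms limma called 5 of the 8 filiform markers lower and 0 of the 7 fibroblast markers, against 1.66% of all tested genes, and 5 fibroblast markers were higher at an unadjusted p under 0.05, against 23%. With group alone it called 8 of 8 filiform markers lower and 4 of 7 fibroblast markers higher, against 24.4%, and with the length trend removed it called 0 of the 7 filiform markers with a length, all 7 lower at an unadjusted p under 0.05, in a fit that called 0.00693% of genes. The sums for 10 muscle markers (20.09 to 20.27 and 20.19 to 20.33), 6 endothelial markers (13.24 to 13.56 and 13.54 to 13.81), 8 suprabasal markers (19.75 to 20.17 and 19.69 to 20.13) and 7 immune markers (13.07 to 13.32 and 13.10 to 13.31) overlapped between groups. Of the suprabasal markers 1 was called lower with stratum terms, and of the 6 immune markers above the floor 1 was called higher. The part of these shifts in the members' values was not tested.

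Genes with the profile most like that of Bmi1 over the 9 libraries were sought by scaling each gene to 0 at its lowest and 1 at its highest library. The mean absolute difference from Bmi1 was smallest for Sfxn5 (0.0382), followed by H6pd, Aldh1a3, Lrp8 and Il1b (up to 0.0518), against a median of 0.413 over tested genes. All 5 were highest in transgene replicate 3, by small amounts: H6pd stood at 10.57 there and from 10.23 to 10.37 in the other 8 libraries. Their differences ran from 0.08 for Sfxn5 to 0.20 for Lrp8. With stratum terms limma called 0 of the 5 (adjusted p 0.156 to 0.358), against 1.66% of all tested genes. With group alone it called H6pd (adjusted p 0.0355), Aldh1a3 (0.0254) and Lrp8 (0.0306), against 24.4%. These genes were picked because the same values track Bmi1, which separates the groups. That choice favours a call, so these tests are not evidence about them. Among the other members Pcgf3 (0.242, place 1650 in this order) and Rnf2 (0.330, place 4360) lay below the median of tested genes. The rest lay above it, with Pcgf2 the farthest at 0.615.

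The gene next to Bmi1 on chromosome 2, Commd3, went the other way. Commd3 encodes a protein of the COMMD family, which acts in endosomal sorting. It stood at 10.78, 10.91, 10.91, 10.88 and 10.86 in control replicates 1 to 5 and at 10.72, 10.62, 10.60 and 10.59 in transgene replicates 1 to 4. All 4 transgene libraries lay below all 5 controls, by -0.23 on the log2 scale, a 0.851-fold level. The limma adjusted p was 0.0613 with stratum terms and 0.00361 with group alone. The authors' deposited table lists Commd3 with a log2 fold change of -0.27 (SE 0.08) and an adjusted p of 0.0151. Commd3 differed by -0.05 within stratum 1, a single pair, and by -0.31 within stratum 2. Commd3 is short, with 959 exon bases, and with the length trend removed its difference was -0.10 (limma adjusted p 0.256). Its further neighbours Dnajc1 (0.03), Mllt10 (0.07) and Pip4k2a (0.09) were not called in either fit. The groups of Pip4k2a did not overlap either, with transgene libraries higher. Thus 2 of the 4 tested genes of this list had separate groups, against 21.3% of all tested genes. Spag6, between 0.24 and 0.28 in every library, lay below the floor for testing.

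Other subunits of the Polycomb system, from lists chosen with earlier results of these data known, showed no call with stratum terms. Limma called 0 of 11 canonical PRC1 subunits, 0 of 23 variant PRC1 partners, 0 of 11 PRC2 subunits and 0 of 8 genes of the H2A ubiquitin erasers, against 1.66% of all tested genes. At an unadjusted p under 0.05 the counts were 2, 7, 2 and 2, against 23% of all tested genes. With group alone the calls were 1 higher and 1 lower, 3 higher and 4 lower, 1 higher and 1 lower, and 2 higher and 0 lower, against 24.4% of all tested genes. The median differences of the 4 lists were -0.06, 0.01, 0.03 and 0.05, against 0.0028 over all tested genes.

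Among canonical subunits, which are the complexes that Bmi1 enters, 2 PHC proteins lay on opposite sides. Phc3 differed by 0.25 (SE 0.06), with all transgene libraries (10.69 to 10.87) above all controls (10.43 to 10.59). Its limma adjusted p was 0.0688 with stratum terms and 0.00492 with group alone, and the authors' deposited table gives it a log2 fold change of 0.28 with an adjusted p of 0.0209. Phc2 differed by -0.12, from 10.76 to 10.84 in controls and from 10.60 to 10.74 in transgene libraries (limma adjusted p 0.182 and 0.0281 in the same order). The CBX subunit with the largest difference was Cbx6 at 0.15 (limma adjusted p 0.225), with groups that did not overlap. It was named after its value was seen. Of the 11 canonical subunits 3 had separate groups, against 21.3% of all tested genes.

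Among variant partners, Mga (0.23) and Bcor (0.20) were higher and the casein kinase 2 subunit Csnk2b (-0.20) and the adaptor Skp1a (-0.18) were lower with group alone, with limma adjusted p-values from 0.00188 for Csnk2b to 0.0248 for Mga. With stratum terms their adjusted p-values ran from 0.0565 for Csnk2b to 0.143 for Bcor. Within stratum 1 the differences of Mga and Bcor were -0.04 and -0.06, against 0.34 and 0.31 within stratum 2. The authors' deposited table lists Csnk2b (-0.25) and Skp1a (-0.21), and not Mga or Bcor.

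In PRC2, which methylates histone H3, Suz12 differed by 0.12 and the histone-binding subunit Rbbp4 by -0.13, and neither group pair overlapped. Their limma adjusted p-values were 0.152 and 0.112 with stratum terms and 0.0150 and 0.00714 with group alone. Of the 11 PRC2 subunits 5 had separate groups, Ezh1, Ezh2 and Rbbp7 among them, against 21.3% of all tested genes. Among enzymes and cofactors that remove ubiquitin from H2A, Mysm1 differed by 0.23 and Asxl2, a cofactor of the BAP1 enzyme, by 0.22, with limma adjusted p-values of 0.0921 and 0.152 with stratum terms and 0.00868 and 0.0293 with group alone. Asxl2 differed by -0.02 within stratum 1 and by 0.32 within stratum 2, and by 0.11 to 0.32 with 1 library left out. The authors' deposited table lists Mysm1 at 0.30 with an adjusted p of 0.0291. The largest adjusted p in that table is 0.0498, and its largest log2 fold change is 0.66. None of the 8 members is among its 981 genes, Bmi1 included. Why a gene is absent from it is not stated.

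Exon length is given beside direction for these named genes. The named genes above 0 with the longest exons were Mga (13931 bases), Asxl2 (11937 bases) and Phc3 (11682 bases), and the named genes below 0 with the shortest were Commd3 (959 bases), Csnk2b (1119 bases) and Skp1a (1864 bases). With the length trend removed the differences of Mga, Asxl2 and Phc3 were 0.05, 0.06 and 0.10, and those of Csnk2b and Skp1a were -0.09 and -0.12. Rbbp4, with 4407 exon bases, and Phc2, with 4286, did not shrink and stood at -0.16 and -0.15 (limma adjusted p 0.127 and 0.185).

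**Figure D4:**
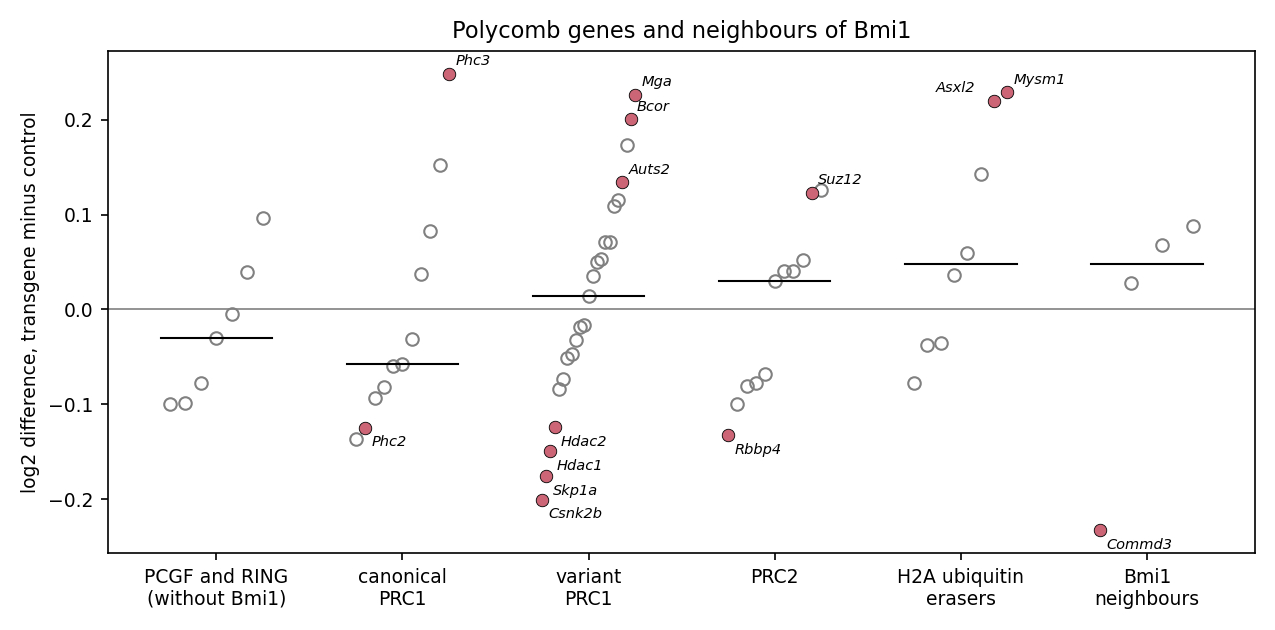
Log2 difference, transgene minus control, for the 7 members other than Bmi1, each tested gene of the Polycomb lists and the neighbours of Bmi1, with a bar at each list's median; Bmi1 itself at 2.44 is left out. Filled and named points have a limma adjusted p under 0.05 with group alone, and no point is called with stratum terms; all the points lie between -0.23 and 0.25.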

How the data were processed

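RNA was sequenced from stranded mRNA libraries as single 50-base reads, per the labels' protocols. TopHat2, HTSeq, DESeq2 and the build mm9 are named, without versions, per the submitters' processing notes. The authors deposited log2 normalized expression per gene symbol; the transform is not named. Per the file headers, their comparison table of 981 genes holds a mean normalized signal, a log2 fold change with its SE, the linear ratio, a test score and p-values. A set of 3064 genes at exactly 0 in every library and 1 row without a symbol were left out.

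Members and lists were chosen with earlier results of these data known. limma 3.58.1 in R 4.3.3 was fitted to 14490 genes with an intensity trend, two-sided. It was also run on simulated data with the same SD in both groups and the same strata removed. Those data cannot check the fit for Bmi1, whose SD differed between groups. Named in each list were the genes called in either fit, up to the 4 with the largest difference. Exon lengths, names and sequences came from GENCODE M21 (GRCm38) and gene order from RefSeq GRCm38.p6; no coordinates were carried to mm9. Lengths matched 99.6% of tested genes. Alternatives were group alone, no filter or a floor of 5, median and quantile scaling, length correction (lowess span 0.3), other variance priors, leaving out each library, and single strata.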

Additional observations from a re-analysis of the deposited data

Results flagged for a closer look

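Among 20 measures (the 8 members, the Bmi1 share and 11 named genes of the lists), 40 groups were checked for a library far from the rest, and 2 stood out, where chance flags about 1 in 20 groups. For Csnk2b, transgene replicate 4 held 11.77 and the other 3 transgene libraries 11.67. Rbbp4 was at 11.54 in transgene replicate 4, the lowest of its group, whose other values ran from 11.61 to 11.62. Bmi1 in transgene replicate 3 did not reach the threshold, with a gap of 0.81 of the group's range.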

How the results depend on the processing

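The Bmi1 difference stayed above 0 in every alternative, with limma adjusted p from 1.61e-06 to 0.227. With group alone it was 2.44 and called, and the counts called were 1 member, 3537 of all genes, 2 canonical PRC1 subunits, 7 variant partners, 2 PRC2 subunits, 2 erasers and 1 neighbour of Bmi1, against 240 of all genes and 0 of each list with stratum terms. Over all genes 152 were called with no filter, 69 after quantile scaling, 1 with the length trend removed and 733 within stratum 2, where 2 variant partners and 1 neighbour were called. With the length trend removed Pcgf1 was 0.0484 and Pcgf3 was -0.0271. Within stratum 1 Pcgf1 was 0.0475, Pcgf6 -0.21 and Ring1 0.12, and within stratum 2 Pcgf5 was 0.0221.

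Leaving out each library in turn moved Bmi1 between 1.77 and 2.74 and Pcgf5 between -0.0702 and 0.0425. Members called higher ran from 0 to 1, canonical subunits from 0 to 1, variant partners from 0 to 5, erasers from 0 to 3 and neighbours from 0 to 1. All genes called ran from 0 to 1841: 1841 without control replicate 1 and 1835 without transgene replicate 1, 31 without transgene replicate 3, 9 without control replicate 4 or 5, 1 without control replicate 2, and 0 without control replicate 3 or transgene replicate 2. Leaving out either library of stratum 1 leaves stratum 2 alone to give the differences, which then equal those within stratum 2. Stratum 3 holds controls only, so leaving out control replicate 4 or 5 left the differences unchanged. What else moved the counts was not tested. Bmi1 was called without control replicate 1, transgene replicate 1 or transgene replicate 3. No paired analysis was possible because replicate numbers follow accession order and pair no libraries. Depth is unknown, so counting error cannot be given.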
